A study of Mus musculus with 9 samples.

Results

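The genes described here differed from naïve lung organoids in the same direction at both culture days at which organoids from cigarette smoke (CS) exposed mice were measured. There were 3 groups of 3 arrays. CSD5 and CSD14 were organoids grown from lungs of CS-exposed mice and taken at culture day 5 and day 14, and ND14 were organoids grown from lungs of unexposed, naïve mice and taken at day 14. All mice were male BALB/c animals aged 8 to 12 weeks, and the CS mice breathed cigarette smoke in a whole-body chamber on 5 days of each week over 12 weeks. Dissociated lung cells of all groups were embedded in growth factor-reduced Matrigel and kept in proliferation medium until day 6, when a differentiation medium with less serum replaced it, so CSD5 was taken before that change and ND14 and CSD14 after it. A naïve day 5 group was not analysed here. CSD5 therefore differs from ND14 in exposure, culture day and medium. Anything particular to the ND14 cultures cannot be told apart from an effect of CS, because every comparison with naïve organoids below uses the same 3 ND14 arrays. The replicates are labelled biological but are tied to no named animal or culture, and the p-values therefore measure the spread between these arrays, part of which may be technical.

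The contrast set the mean of the CSD5 and CSD14 group means against the ND14 mean, in 1 limma model of the 9 arrays on the deposited log2 signals. A difference of 1 on this scale is a 2-fold difference. A gene counted as called where its Benjamini-Hochberg adjusted p in this contrast was under 0.05, and as shared where, in addition, CSD5 and CSD14 each differed from ND14 in the same direction at an unadjusted p under 0.05. Of 22180 genes, each read through its transcript cluster of highest mean signal, 1851 were called and 1528 were shared, 759 of them higher and 769 lower in both CS groups. Nearly all code for proteins, 744 of the higher and 751 of the lower genes.

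Lung organoids grow from epithelial progenitors, which can give rise to secretory, ciliated and basal cells of the airways and to alveolar type 2 cells, the makers of surfactant, with the flat alveolar type 1 cells they renew. When a lung epithelium is injured or short of retinoic acid, its basal cells can turn to a squamous programme like that of the epidermis, in which layered cells build desmosomes, change their keratins and seal themselves with a cross-linked protein envelope and ceramide lipids. Epithelial cells also answer foreign nucleic acids with type I interferon, whose receptor acts through STAT and IRF factors on a set of antiviral genes. Smoke is known in airways for mucus cell growth, xenobiotic-metabolising enzymes and the NRF2 antioxidant response, and for squamous change.

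The libraries were alike in signal, with array medians of 2.79 to 3.04, but CSD5 replicate 1 stood apart from the other CS arrays and resembled ND14. Its mean correlation over all transcript clusters was 0.991 with ND14, 0.973 with the other CSD5 arrays and 0.963 with CSD14. At 80 genes that CSD5 replicates 2 and 3 held over 4-fold above ND14, replicate 1 had moved a median of 13.4% of the way on the linear scale, and at 190 genes held over 4-fold below it a median of 13.7%. Among the shared genes it was the CS array nearest to the ND14 mean in 728 of the 759 higher and 736 of the 769 lower genes, and it lay inside the ND14 range in 464 of the 1528. The other 5 CS arrays lay above all ND14 arrays in 752 of the 759 higher genes and below all of them in 767 of the 769 lower genes. Shared genes were selected because both CS groups differ from ND14, so separation of the other 5 CS arrays was largely set by that rule. Shares over all genes are not given for these counts, whereas the correlations above use all clusters. The reason for the position of CSD5 replicate 1 was not tested, and results are given below with all 9 arrays and, in places, also without it. Epithelial identity was clear on every array, with Cdh1 (E-cadherin) at 10.23 to 10.36 and Epcam, an epithelial adhesion molecule, at 7.60 to 8.40. Several markers that define other cells were near the lowest signals, with Ptprc (the leukocyte antigen CD45) at 2.35 to 3.28, Pecam1 of endothelium at 2.30 to 2.62, Col1a1 of fibroblasts at 3.26 to 3.84 and Cd3e of T cells at 2.05 to 3.04. Others were not. Cd68, a lysosomal protein of macrophages that other cells also make, lay at 8.40 to 9.62, the macrophage receptor Csf1r reached 4.71, and Dcn, the matrix proteoglycan decorin of fibroblasts, read 6.63 and 4.99 in CSD5 replicates 2 and 3 against 3.02, 3.16 and 2.84 in ND14.

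In all, 2098 of 34472 transcript clusters were called (6.09%), 1117 higher and 981 lower in CS, and 6049 had an unadjusted p under 0.05. Counted as genes, 1003 were called higher (4.52% of the 22180) and 848 lower (3.82%), so that the shared genes made up 3.42% of all genes on the higher side and 3.47% on the lower side. The 6 CS arrays and the 3 ND14 arrays did not overlap in 573 shared higher genes and 463 shared lower genes, where 4.14% of all genes had the CS arrays above and 4.39% below. The lower genes moved further. Beyond 2-fold in both CS groups lay 175 higher and 313 lower genes, beyond 4-fold 16 and 87, and beyond 8-fold 4 and 25. Because the arrays read bulk RNA, more or fewer cells of a type cannot be told apart from more or less RNA per cell in any of these differences. The median shared higher gene stood at 5.29 in ND14, 6.07 in CSD5 and 6.66 in CSD14, and the median shared lower gene at 6.93, 5.87 and 4.93.

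These counts rested on single arrays. Without CSD5 replicate 1, 4082 clusters were called and 2902 genes were shared (1200 higher, 1702 lower), among them 1511 of the 1528. Of all 22180 genes 1576 were then called higher and 1892 lower, against 1003 and 848 with all 9 arrays. List counts without that array are to be read against this general rise. Without CSD5 replicate 2 or 3 the shared genes numbered 725 and 913, without CSD14 replicate 1, 2 or 3 they numbered 876, 870 and 910, and without ND14 replicate 1, 2 or 3 they numbered 299, 608 and 305. A model that took the 6 CS arrays as a single group called 18 clusters, and 2981 without CSD5 replicate 1, an alternative chosen after seeing the data. The single contrasts with all 9 arrays called 1 cluster for CSD5 against ND14, which was Sftpc, with 4770 at an unadjusted p under 0.05, and 3153 clusters for CSD14 against ND14. Without CSD5 replicate 1 they called 3333 and 4090.

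In size, most shared genes were graded, with the larger difference at CSD14. The ratio of the CSD5 to the CSD14 log2 difference from ND14 was under 2/3 in 982 shared genes (516 higher, 466 lower), between 2/3 and 1.5 in 535 (241 higher, 294 lower) and over 1.5 in 11 (2 higher, 9 lower). Its median was 0.58 among the higher genes, with an interquartile range of 0.46 to 0.71, and 0.62 among the lower, with a range of 0.50 to 0.75. The CSD14 against CSD5 contrast, which does not use the ND14 arrays, was called in 182 shared genes (116 higher, 66 lower), in each of which CSD14 lay further from ND14, while 3.17% of all genes were called in it. The split by direction depended on the scaling. With each array centred on its median the similar genes were 380 higher and 268 lower, those graded towards CSD5 6 higher and 8 lower, and those called between the days 89 higher and 108 lower, and quantile normalization gave 392 and 273, 8 and 7, and 103 and 117.

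CSD5 replicate 1 also set much of this grading. Without it 1889 of the 2902 shared genes were of similar size, 655 were graded towards CSD14 and 358 towards CSD5, and the median ratio was 0.77 for the higher and 0.98 for the lower genes. The contrast between the days was then called in 367 shared genes, with CSD14 further from ND14 in 310 and CSD5 further in 57. A gene of similar size is one whose ratio falls between the bounds, and the interval of the CSD14 minus CSD5 difference was often wide. Cd80, a co-stimulatory ligand for T cells, had a difference of 0.02 with a 95% interval from -1.0 to 1.04, although without CSD5 replicate 1 its CSD5 and CSD14 groups stood at 2.84 and 2.19 from ND14 and the contrast between them had an adjusted p of 0.0333. Itga3, a laminin-binding integrin chain, had -0.07 with an interval from -0.45 to 0.31.

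**Figure D1:**
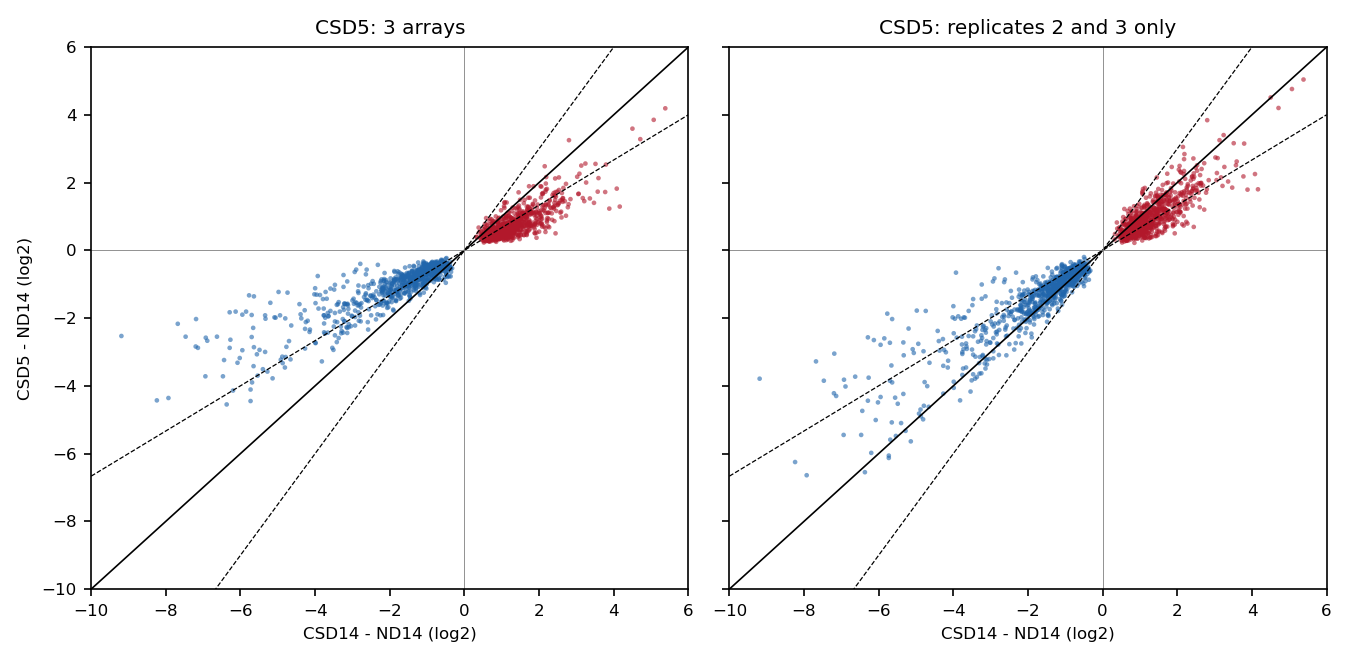
Log2 difference of CSD14 from ND14 (x axis) against that of CSD5 from ND14 (y axis) for the 1528 shared genes, higher in red and lower in blue, with all 3 CSD5 arrays on the left and with CSD5 replicates 2 and 3 only on the right. Both axes use the same ND14 arrays, the solid line marks equal differences and the dashed lines the ratios 2/3 and 1.5, and the median ratio of 0.58 among higher genes places most red points under the solid line on the left.

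Among shared genes whose CS and ND14 arrays did not overlap, those with the largest smaller difference were taken as the leading genes, 12 in each direction. Flavin-containing monooxygenases were among the higher ones, enzymes that oxidise nitrogen and sulphur in foreign compounds. Fmo6 had log2 signals of 6.49, 9.04 and 9.03 in CSD5, 9.43, 9.30 and 9.40 in CSD14 against 4.29, 3.92 and 3.78 in ND14. Every CS array lay above every ND14 array, with replicate 1 of CSD5 in between, and the pooled difference was 4.78 ± 0.49 (SE, adjusted p = 0.00347, limma). Fmo2, the lung form in most mammals, read 6.84, 8.63 and 8.68 in CSD5, 9.05, 8.92 and 9.06 in CSD14 against 5.35, 5.65 and 5.5 in ND14, a difference of 3.03 ± 0.35 (adjusted p = 0.00427).

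A2ml1, a secreted protease inhibitor of the alpha-2-macroglobulin family, reached 8.34, 11.07 and 11.05 in CSD5 and 11.41, 11.39 and 11.31 in CSD14 against 6.28, 6.51 and 6.12 in ND14, and differed by 4.46 ± 0.52. Cybb, the catalytic subunit of the phagocyte NADPH oxidase, read 4.9, 7.60 and 7.77, then 7.71, 7.47 and 7.82, against 3.03, 3.47 and 3.01 in ND14. Its difference was 4.04 ± 0.53 (adjusted p = 0.00526). Of 28 macrophage markers, Cybb among them, 5 were called higher and 1 lower, and 3 of the higher ones were shared. Among the others called, Cd14 and Ccr2 were higher (1.42 and 0.96, adjusted p = 0.0119 and 0.0125) and Gpnmb was lower (-2.04, adjusted p = 0.00212). Tyrobp, Csf1r and C1qa, markers that macrophages carry beside Cybb, were not called (adjusted p = 0.595, 0.537 and 0.637). Tyrobp reached 4.85 and 5.31 in CSD5 replicates 2 and 3 against 2.54 to 3.31 on the other arrays, and without CSD5 replicate 1 it was called (0.82, adjusted p = 0.0168). Cyba, which pairs with Cybb in the membrane, rose by 1.39 ± 0.25 (adjusted p = 0.0134).

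Hp, Saa3 and Muc1 were also among the leading higher genes. Haptoglobin (Hp), which binds free haemoglobin, stood at 8.5, 10.22 and 10.37 in CSD5, 9.27, 9.07 and 9.40 in CSD14 against 6.37, 6.75 and 6.23 in ND14, so that here CSD5 replicates 2 and 3 exceeded CSD14. Its CSD14 minus CSD5 difference was -0.45 with an interval from -1.38 to 0.48, and without CSD5 replicate 1 that contrast had an adjusted p of 0.0116. Saa3, a serum amyloid A made locally in inflamed tissue, read 5.47, 7.61 and 7.06 in CSD5, 7.92, 8.08 and 7.94 in CSD14 against 3.95, 4.47 and 4.14 in ND14, a difference of 3.16 ± 0.38 (adjusted p = 0.00449). Muc1, a membrane mucin of glandular and alveolar epithelium, read 8.59, 9.95 and 9.96 in CSD5, 10.33, 10.31 and 10.30 in CSD14 against 7.30, 7.31 and 7.10 in ND14. Its CSD14 and ND14 groups were tight, CSD5 replicate 1 lay below the other CSD5 arrays, and the difference was 2.67 ± 0.27.

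The other 5 leading higher genes differed by 2.17 to 4.0. They were Apol9b, an apolipoprotein L that interferon induces in mice (4.0), Stc1, the secreted hormone stanniocalcin (2.90), Cdo1, which breaks down cysteine (2.81), Oasl2, an antiviral oligoadenylate synthetase-like protein (2.60), and Cd80 (2.17). In each of the 12 the CSD5 replicate 1 array was the lowest of the 6 CS arrays.

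**Figure D2:**
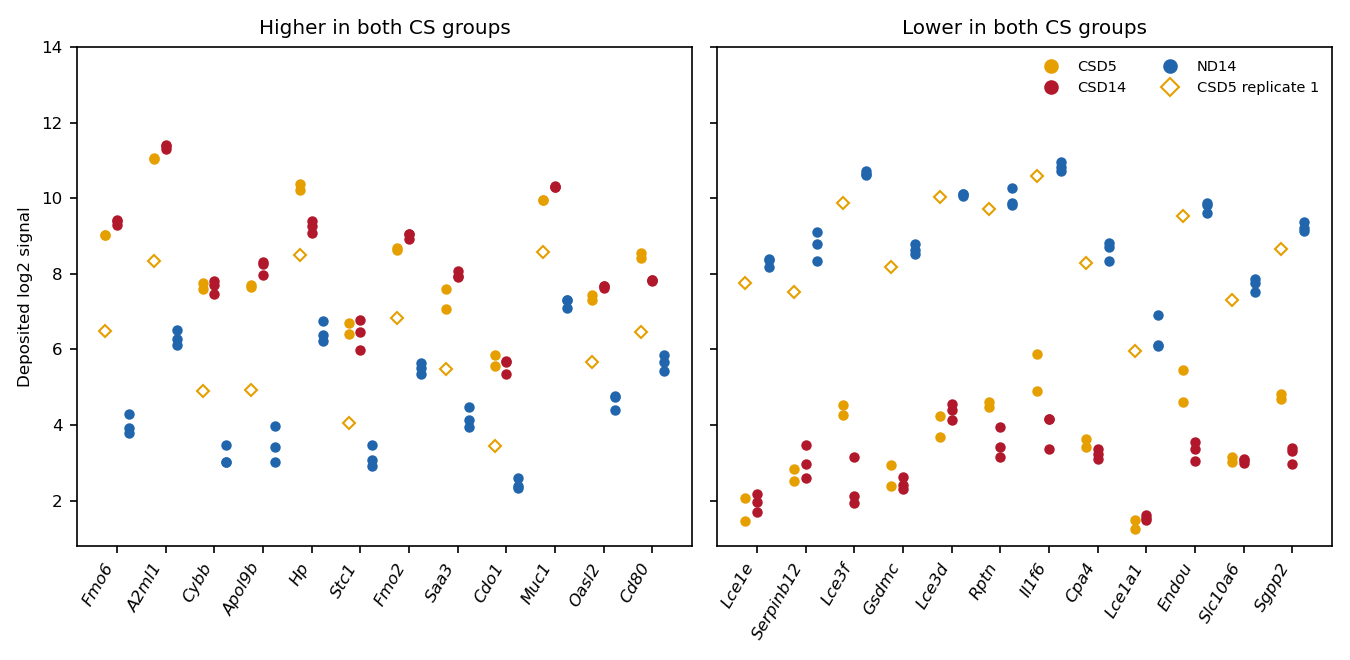
Deposited log2 signal (y axis) of the 12 leading higher and 12 leading lower shared genes (x axis) on each array, with CSD5 in orange, CSD14 in red and ND14 in blue, and CSD5 replicate 1 as an open diamond. In Fmo6 the CS arrays sit between 6.49 and 9.43 and the ND14 arrays between 3.78 and 4.29, and in the lower genes CSD5 replicate 1 sits beside ND14.

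Late cornified envelope genes made up 4 of the 12 leading lower genes. They encode small proteins that are cross-linked under the surface of cornifying cells. Lce3f read 9.88, 4.53 and 4.27 in CSD5 and 2.12, 1.95 and 3.16 in CSD14 against 10.71, 10.63 and 10.62 in ND14, a difference of -6.34 ± 1.04 (adjusted p = 0.00985). Lce1e fell from 8.19, 8.36 and 8.39 in ND14 to 2.17, 1.71 and 1.96 in CSD14 and to 2.06 and 1.47 in CSD5 replicates 2 and 3, with 7.75 in replicate 1. Fitted without that array, CSD5 and CSD14 stood at -6.55 and -6.37 from ND14, and the contrast between the days had an adjusted p of 0.624. Lce3d and Lce1a1 had pooled differences of -4.92 and -4.14. Members of this family are near-identical in sequence, and probes of one could read another.

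Serpinb12, an epithelial protease inhibitor, had 7.53, 2.85 and 2.52 in CSD5, 3.47, 2.60 and 2.97 in CSD14 against 8.79, 8.35 and 9.10 in ND14, a difference of -5.09 ± 0.92 (adjusted p = 0.0137). Rptn, which encodes repetin, an envelope protein that binds calcium, went from 9.88, 9.82 and 10.26 in ND14 to 3.95, 3.16 and 3.43 in CSD14 and to 9.72, 4.60 and 4.47 in CSD5, a difference of -5.10 ± 0.98. Il1f6, which encodes the interleukin-36 alpha of stratified epithelium, read 10.59, 5.88 and 4.9 in CSD5 and 3.37, 4.16 and 4.16 in CSD14 against 10.96, 10.83 and 10.73. In all 3 genes CSD5 replicate 1, at 7.53, 9.72 and 10.59, sat close to ND14 while the other CS arrays lay at 5.88 or lower. The remaining leading lower genes were Gsdmc, a gasdermin that forms membrane pores (-5.17), Endou, a poly(U)-specific endoribonuclease (-4.84), Sgpp2, a phosphatase of sphingosine 1-phosphate (-4.60), Cpa4, a carboxypeptidase (-4.46), and Slc10a6, a carrier of sulphated steroids (-3.94).

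Interferon-stimulated genes rose in both CS groups. Of 33 measured members of the list, 22 were called higher and 1 lower, and all 23 were shared, while 4.52% of all genes were called higher. The median member differed by 0.88, or 1.03 without CSD5 replicate 1, against -0.04 for all genes. Called higher were 4 of 5 sensors of nucleic acids, all 3 transcription factors of the receptor pathway, all 5 members of the ISG15 conjugation and related system and 10 of 20 antiviral effectors. The sensor Zbp1, which binds left-handed nucleic acid, read 5.16, 6.66 and 6.47 in CSD5, 7.50, 7.26 and 7.31 in CSD14 against 3.81, 4.64 and 3.85 in ND14, and rose by 2.63 ± 0.32 (adjusted p = 0.00453). Irf7, the factor that amplifies interferon production, had 6.37, 7.50 and 7.59, then 8.45, 8.51 and 8.41, against 5.96, 6.03 and 6.0. It was graded, with CSD14 1.30 above CSD5 (adjusted p = 0.0393).

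Isg15, the ubiquitin-like modifier, stood at 8.12, 9.22 and 9.10 in CSD5, 9.43, 9.33 and 9.34 in CSD14 against 7.71, 7.74 and 7.66 in ND14, a rise of 1.39 ± 0.21 (adjusted p = 0.00797). Bst2, also called tetherin, which holds budding virus at the membrane, read 7.68, 9.01 and 9.06, then 9.56, 9.82 and 9.67, against 7.09, 7.12 and 6.94. The RNA-binding effector Ifit1 rose by 1.32 ± 0.20. The set did not move as a whole. Ifit2, Ifit3 and Rsad2, antiviral effectors of the same kind, had differences of 0.12, -0.27 and 0.22 with adjusted p of 0.732, 0.318 and 0.651, the chemokine Cxcl10 lay at 2.12 to 2.60 on all arrays, and Oasl1, a repressor of Irf7 translation in mice, fell by 1.10 ± 0.26 (adjusted p = 0.0351).

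The interferon-stimulated response element was searched for as GAAANNGAAA on either strand, TTTCNNTTTC when read on the other, in the 250 bases before each RefSeq transcription start (build GRCm38.p6). It was found in 3.46% of 27025 genes, in 8 of the 23 list members with a window and in 5 of the 14 shared higher members (Stat2, Isg15, Oas3, Ifit1 and Bst2), and also in 3 of 8 members that were not called (Ifit3, Rsad2 and Trim30a). Over all shared genes with a window it was present in 43 of 583 higher (7.38%) and 15 of 596 lower genes (2.52%). The windows of 2 genes that rose and of 1 that did not are shown so that their matches, in capitals, can be compared, and they describe letters, not bound sites.
Isg15, chr4:156200819-156201068, minus strand: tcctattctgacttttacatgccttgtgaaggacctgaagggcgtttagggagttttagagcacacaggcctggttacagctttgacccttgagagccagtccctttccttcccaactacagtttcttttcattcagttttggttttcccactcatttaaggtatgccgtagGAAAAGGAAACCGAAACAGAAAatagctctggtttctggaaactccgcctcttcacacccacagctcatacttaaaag
Bst2, chr8:71537473-71537722, minus strand: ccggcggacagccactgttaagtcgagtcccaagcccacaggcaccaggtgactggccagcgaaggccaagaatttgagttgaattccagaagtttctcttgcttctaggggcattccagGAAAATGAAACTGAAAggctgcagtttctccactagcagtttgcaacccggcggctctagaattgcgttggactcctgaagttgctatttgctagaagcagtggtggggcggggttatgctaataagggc
Ifit3, chr19:34583279-34583528, plus strand: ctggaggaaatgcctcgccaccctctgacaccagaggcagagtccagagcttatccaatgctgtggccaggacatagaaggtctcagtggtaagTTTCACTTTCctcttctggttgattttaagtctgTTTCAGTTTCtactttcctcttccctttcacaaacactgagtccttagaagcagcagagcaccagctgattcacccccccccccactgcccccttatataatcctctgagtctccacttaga
The first holds 3 overlapping matches that begin 78, 72 and 66 bases before the start, the second 2 that begin 130 and 124 bases before it, and the third 2 that begin 156 and 122 bases before it.

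Antigen presentation by MHC class I rose with smaller differences. Of 16 measured genes 7 were called higher, none lower, and 5 were shared, with a median of 0.56. All 9 that were called without CSD5 replicate 1 were shared. The light chain B2m read 8.92, 10.24 and 10.02 in CSD5, 10.47, 10.71 and 10.58 in CSD14 against 8.54, 8.60 and 8.72 in ND14, a rise of 1.54 ± 0.25 (adjusted p = 0.0093). The immunoproteasome subunit Psmb9 had 5.44, 6.31 and 6.02, then 7.27, 7.47 and 7.25, against 5.24, 5.53 and 5.43, and was graded, with CSD14 1.41 above CSD5 (interval 0.96 to 1.85, adjusted p = 0.00871). Its partner Psmb8 was called (1.10) but not shared, and Tapbp, the tapasin that loads peptide, rose by 0.76 ± 0.13, in its cluster of higher signal.

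Cornified envelope genes showed the largest drop of any list. They cluster on chromosome 3 as the epidermal differentiation complex, with a few relatives elsewhere, and of 29 measured members 23 were called lower and none higher, 22 of them shared, while 3.82% of all genes were called lower. The median difference was -3.63, and -4.03 without CSD5 replicate 1. Lce3a had the brightest signal among them in ND14 at 12.26, 12.43 and 12.40. It read 12.37, 8.89 and 8.25 in CSD5 and 2.93, 3.11 and 3.49 in CSD14, so that CSD14 lay 6.66 below CSD5 (interval -8.53 to -4.79, adjusted p = 0.0052). Cnfn, which encodes cornifelin, had the same order, with 10.65, 8.70 and 8.12, then 4.42, 4.99 and 4.66, against 11.05, 10.63 and 11.27 in ND14.

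Sbsn and Dmkn, secreted proteins of the upper epidermis, fell by 3.10 ± 0.34 and 3.37 ± 0.45. Not every envelope gene took part. Ivl, the envelope scaffold involucrin, differed by 0.50 (adjusted p = 0.172) with 5.86, 6.77 and 6.4 in CSD5, 6.04, 5.85 and 5.69 in CSD14 against 5.5, 5.78 and 5.52 in ND14, and Flg, which encodes filaggrin, the protein that packs keratin filaments in the granular layer, lay at 2.75 to 4.07 on all arrays. Ivl was called higher (0.62, adjusted p = 0.0127) and Flg lower (-0.64, adjusted p = 0.012) without CSD5 replicate 1.

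**Figure D3:**
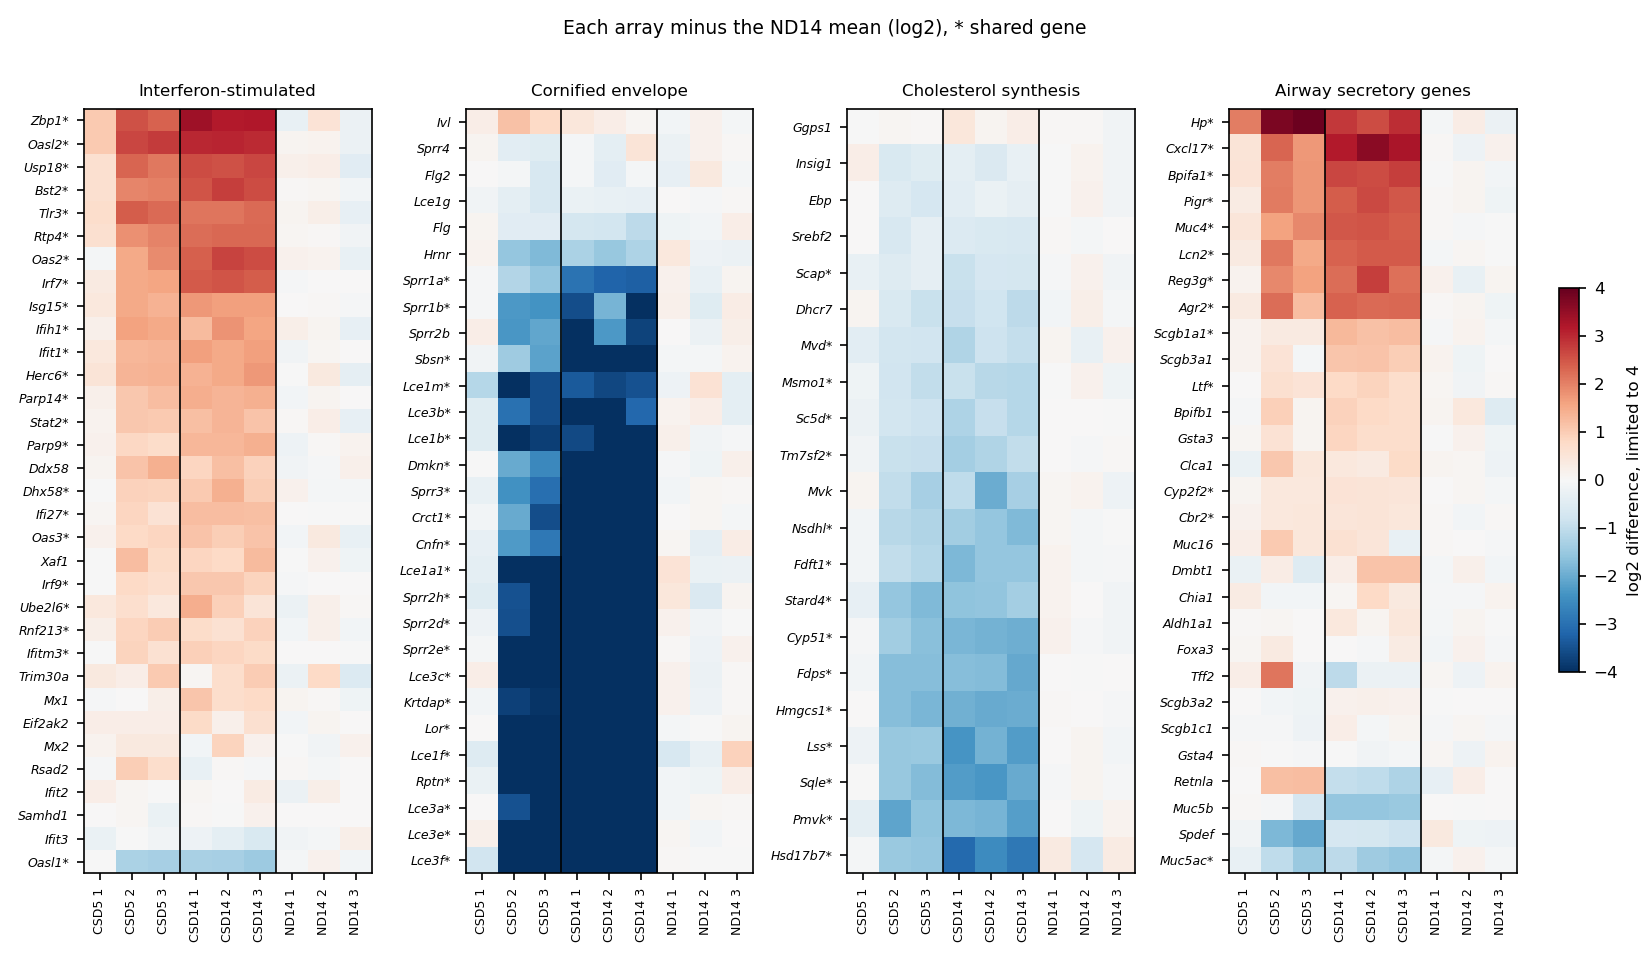
Each array minus the ND14 mean (log2, colour limited to 4 either way) for members of 4 lists, with arrays as columns, genes as rows in order of the pooled difference and shared genes marked by an asterisk. CSD5 replicate 1 is pale in nearly every row, and the cornified envelope rows are darkest blue at CSD14, as in Lce3a at 2.93 to 3.49 against 12.26 to 12.43 in ND14.

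Keratins of stratified epithelium fell. Of 16 measured, 11 were called lower, none higher, and 9 were shared. Of 5 keratins of simple epithelium 2 were called higher and none lower, with 3 higher and 1 lower without CSD5 replicate 1. Krt16, a keratin of stressed and hyperproliferative epithelium, read 10.83, 9.49 and 8.92 in CSD5, 5.34, 5.45 and 5.12 in CSD14 against 11.02, 11.23 and 10.98 in ND14, a fall of 3.55 ± 0.33 (adjusted p = 0.00287). Krt6b, Krt6a and Krt13 fell by 3.5, 1.59 and 1.73, and each was further from ND14 at CSD14 than at CSD5. Krt6a and Krt6b are near-identical and could share probe signal. Krt14 of basal cells changed little by comparison, from 11.46 to 11.50 in ND14 to 10.20 to 10.29 in CSD14 (pooled difference -0.80, adjusted p = 0.00855), Krt15 and the basal factor Trp63 were not called (-0.14 and -0.28, adjusted p = 0.478 and 0.165), and the simple keratins Krt7 and Krt19 rose by 1.35 and 1.13.

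Enzymes that finish the cornified layer fell too. Of 34 genes 27 were called lower, none higher, all 27 shared, with a median of -2.34. They included 12 of 16 proteins that cross-link or process the envelope and 15 of 18 that make its lipids. Alox12b, a lipoxygenase that prepares ceramides for attachment to the envelope, had 10.78, 7.54 and 7.39 in CSD5, 3.39, 2.72 and 3.09 in CSD14 against 10.82, 10.56 and 10.85 in ND14, a fall of 4.92 ± 0.63 (adjusted p = 0.00519). Abca12, which loads lipids into lamellar granules, and Elovl4, which elongates their very long fatty acids, fell by 5.01 and 4.59. Klk8, a secreted protease, fell by 1.79 ± 0.21.

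Desmosome genes, whose cadherins and plaque proteins rivet layered cells together, followed the same direction with 15 of 20 called lower and 1 higher, all shared (median -1.65). The cadherin Dsg3 read 9.51, 8.14 and 8.15 in CSD5, 6.19, 6.27 and 6.35 in CSD14 against 9.83, 9.69 and 9.76 in ND14, a fall of 2.33 ± 0.27 (adjusted p = 0.00427). Corneodesmosin (Cdsn) fell by 4.61 ± 0.60 and the plaque linker Evpl by 1.68 ± 0.19. Pkp2, the plakophilin of simple epithelia and heart, was the member that rose, from 4.44, 4.95 and 4.18 in ND14 to 5.09, 6.29 and 5.97 in CSD5 and 6.70, 6.64 and 6.68 in CSD14.

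Cholesterol synthesis genes fell. Of 21 measured genes 15 were called lower, none higher, all 15 shared (median -1.09, and -1.30 with 20 called without CSD5 replicate 1). Among them were 5 of 7 enzymes of the mevalonate pathway and 8 of 10 from squalene to cholesterol. Lss, which closes the first sterol ring, read 6.59, 5.25 and 5.30 in CSD5, 4.41, 4.89 and 4.54 in CSD14 against 6.81, 6.88 and 6.66 in ND14, a fall of 1.62 ± 0.27 (adjusted p = 0.0105). Fdft1, which makes squalene, fell by 1.19, Sc5d, a late desaturase, by 0.85 and Mvd, which makes isopentenyl pyrophosphate, by 0.82. Fatty acid genes were split. The elongases Elovl6 and Elovl1 and the carboxylase Acaca fell by 1.16, 1.25 and 0.81, while Elovl5, an elongase of polyunsaturated fatty acids, rose by 0.59 ± 0.11 (adjusted p = 0.0154), and of 15 genes 5 were called lower and 2 higher.

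**Figure D4:**
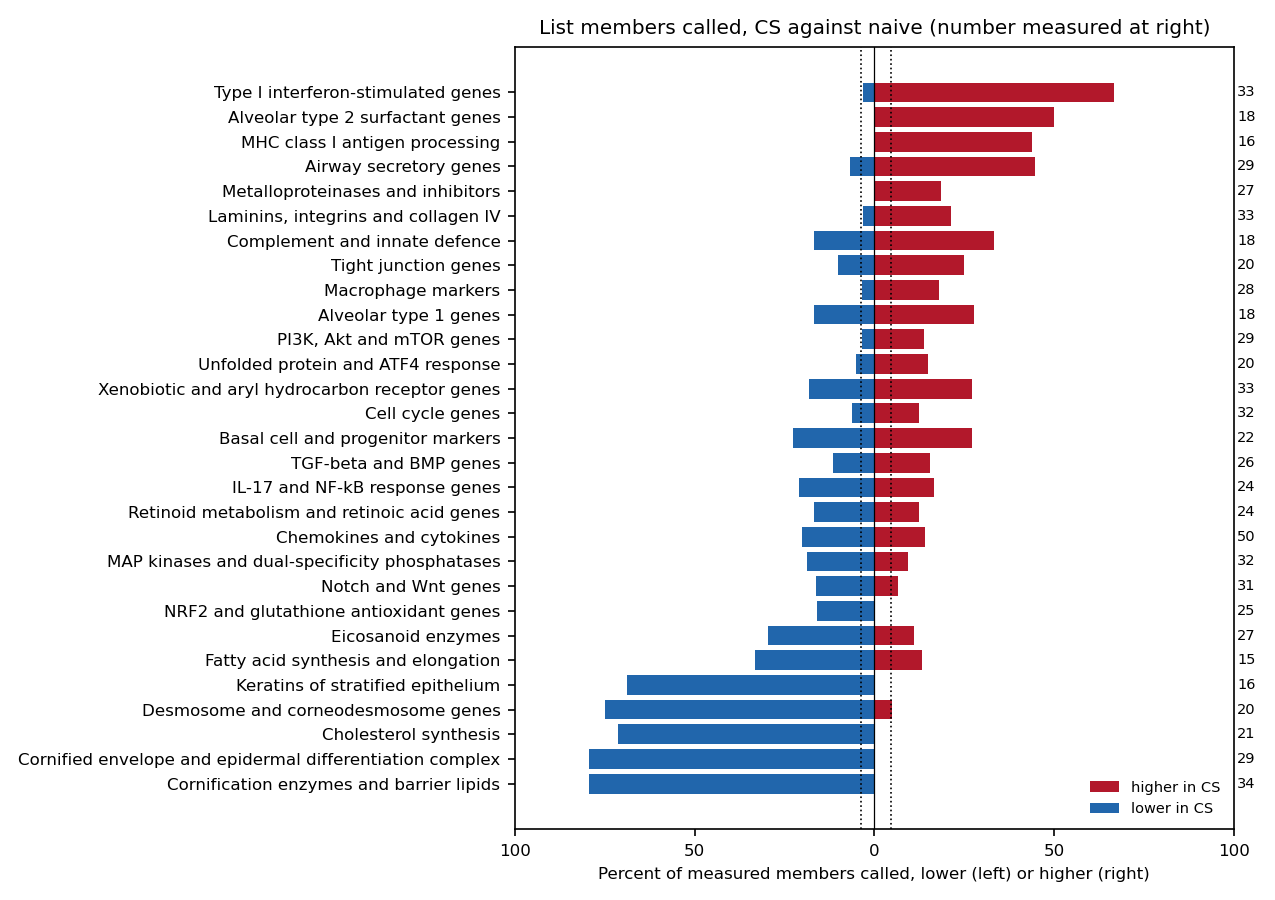
Percent of measured members called higher (red, to the right) or lower (blue, to the left) in CS against ND14 for the 29 gene lists with 4 or more members called, with the number of measured members at the right edge and the shares over all genes as dotted lines. The interferon-stimulated list has 22 of 33 members higher, and the cornified envelope list 23 of 29 lower.

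Genes of lung epithelium rose in part. Of 18 alveolar type 2 genes 9 were called higher, none lower, and 8 were shared, at a median of 0.86. By day the median was 0.87 in CSD5 and 0.36 in CSD14, so the list median was larger at day 5, unlike the grading of most shared genes. With CSD5 replicate 1 left out, 15 were called higher and 10 shared, at a median of 1.04. Sftpb, a surfactant protein that spreads the lipid film, read 5.62, 6.96 and 7.09 in CSD5, 7.08, 7.09 and 6.96 in CSD14 against 4.78, 5.25 and 4.95 in ND14, a rise of 1.81 ± 0.28 (adjusted p = 0.00876). Abca3, the lipid pump of lamellar bodies, rose by 0.94 and Cxcl15, a lung-specific chemokine, by 1.23. Sftpc, whose product marks alveolar type 2 cells most strictly, was called but not shared. It read 9.49, 11.29 and 11.49 in CSD5 and 4.55, 4.25 and 3.95 in CSD14 against 5.74, 5.79 and 5.79 in ND14, above ND14 at day 5 and below it at day 14. Alveolar type 1 genes went both ways, with Pdpn (podoplanin) and the matrix inhibitor Timp3 higher by 2.34 and 2.28, the water channel Aqp5 higher by 0.78, the cofactor Hopx and Igfbp2 lower by 1.03 and 2.20 on the log2 scale, and Ager not called (0.38, adjusted p = 0.756, and 0.76, adjusted p = 0.0393, without CSD5 replicate 1).

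Airway secretory genes followed, with 13 of 29 called higher and 2 lower, 12 and 1 of them shared (median 0.43). Bpifa1, a secreted defence protein of the upper airways, read 9.81, 11.32 and 11.03 in CSD5, 11.93, 11.89 and 12.04 in CSD14 against 9.26, 9.39 and 9.15 in ND14, a rise of 2.07 ± 0.27 (adjusted p = 0.00526). Cxcl17, a mucosal chemokine, rose by 2.44 ± 0.32 and was graded, with CSD14 1.83 above CSD5 (adjusted p = 0.0364). The club cell protein Scgb1a1 had 6.42, 6.63 and 6.63, then 7.58, 7.46 and 7.51, against 6.22, 6.42 and 6.20, a small rise at day 5 of 0.28 and of 1.24 at day 14. The 2 members called lower were gel-forming mucins. Muc5ac, the mucin of goblet cells, read 4.74, 4.04 and 3.58 in CSD5, 3.99, 3.62 and 3.5 in CSD14 against 4.96, 5.21 and 4.98 in ND14, a fall of 1.14 ± 0.22 (adjusted p = 0.0184), and Muc5b differed by -0.88 and was not shared. No motile cilium gene was shared. Of 36 measured, 8 had an unadjusted p under 0.05 and 3 were called (Tmem212, Dynlrb2 and Rsph9), each higher at CSD14, by 2.58, 1.82 and 1.21, with CSD5 at -0.04, -0.23 and 0.01 from ND14.

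Among transcription factors of the airway, Nkx2-1, the lung lineage factor, rose by 0.72 ± 0.10 (adjusted p = 0.00728) and Elf3, an epithelial factor, by 1.55 ± 0.24, while Ovol1, which acts in epidermal differentiation, fell by 1.84 ± 0.29. The arrays of Nkx2-1 read 4.61, 4.74 and 4.63 in CSD5, 5.05, 5.23 and 4.87 in CSD14 against 4.02, 4.22 and 4.17 in ND14, without overlap and with CSD5 replicate 1 level with the other CSD5 arrays. Nr2f2, a nuclear receptor, rose by 1.49 ± 0.26 (adjusted p = 0.0125).

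**Figure D5:**
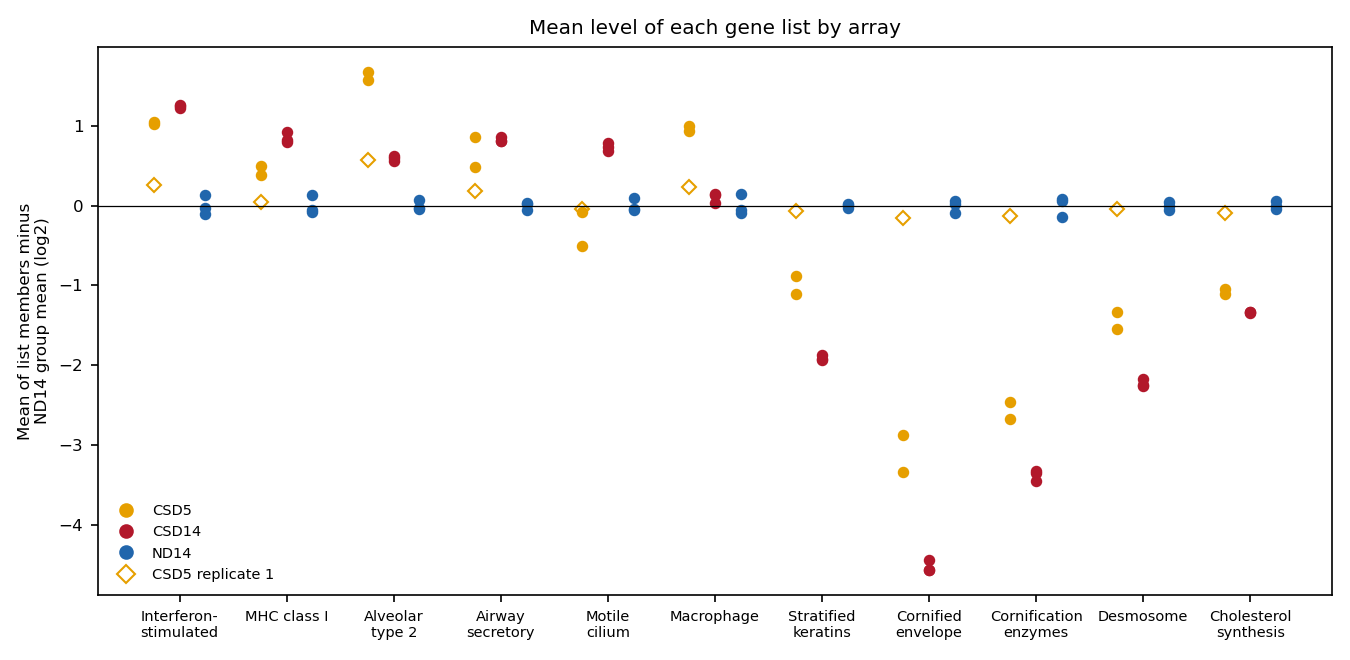
Mean over the members of 11 gene lists (x axis) on each array, as the difference from the ND14 group mean (y axis, log2), with CSD5 in orange, CSD14 in red, ND14 in blue and CSD5 replicate 1 as an open diamond. As groups, both CSD5 and CSD14 lie above ND14 in the interferon, MHC class I and secretory lists and below it in the squamous and sterol lists. CSD5 replicate 1 lies beside ND14 in the lower lists and, at 5.47 against 5.34 to 5.55, inside the ND14 range in the MHC class I list. The macrophage list means of 4.75 and 4.68 in CSD5 replicates 2 and 3 exceed the 3.66 to 3.98 of the other arrays.

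Genes of the interleukin-1 family fell. Of 12 family members 9 were called lower and 1 higher, 8 and 1 of them shared (median -1.41). Of 24 chemokines 4 were called higher, none lower. Il18, which primes interferon-gamma production, read 8.29, 6.01 and 5.5 in CSD5, 3.97, 3.13 and 3.64 in CSD14 against 8.56, 8.60 and 8.40 in ND14, a fall of 3.43 ± 0.50 (adjusted p = 0.00737). Its receptor chain Il18r1 was the member that rose, by 1.27 ± 0.19. Cx3cl1, the membrane-bound chemokine fractalkine, rose by 1.08 ± 0.15 with 4.69, 5.23 and 5.31 in CSD5, 4.85, 5.01 and 4.76 in CSD14 against 3.71, 3.90 and 4.08 in ND14.

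Secreted defence genes were also divided. Lcn2, which binds bacterial siderophores, and Lbp, which binds endotoxin, rose by 1.87 ± 0.30 and 2.16 ± 0.32, and the complement genes Cfb and Serping1, factor B and the C1 inhibitor, by 1.36 ± 0.14 and 1.66 ± 0.16. Defb14, a beta-defensin of stratified epithelium, read 10.47, 6.88 and 5.56 in CSD5, 3.09, 3.45 and 3.59 in CSD14 against 10.54, 10.57 and 10.44 in ND14, a fall of 5.01 ± 0.83 (adjusted p = 0.00985). Wfdc5, a protease inhibitor of the same tissues, fell by 4.25 ± 0.59. S100a9, a calcium-binding protein of neutrophils and inflamed squamous epithelium, fell by 3.10 ± 0.60, the single one of 13 neutrophil markers called lower, where 4 were without CSD5 replicate 1. Of the 13, 1 was called higher and was shared, where 3 were called higher without CSD5 replicate 1. The member called higher with all 9 arrays was Ltf, with 11.52, 12.13 and 12.05 in CSD5, 12.29, 12.38 and 12.18 in CSD14 against 11.56, 11.35 and 11.55 in ND14. The summed linear signal of the 13 was 3169 to 4603 in CSD5, 4725 to 5410 in CSD14 and 2814 to 3318 in ND14. Most of that sum came from Ltf, and 7 of the 13 lay under 3.5 on all arrays. The adhesion molecule Icam1 rose by 0.85 (adjusted p = 0.0294).

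Genes that meet foreign compounds did not move as one programme. Of 33 measured, 9 were called higher and 6 lower, 8 and 5 of them shared. Beside Fmo6 and Fmo2 the paraoxonase Pon1, a lactone-splitting esterase, rose by 2.72 ± 0.32. It read 3.99, 5.84 and 5.17 in CSD5, 7.99, 7.74 and 7.86 in CSD14 against 3.84, 3.45 and 3.83 in ND14, and CSD14 lay 2.86 above CSD5 (adjusted p = 0.00609). Cyp1a1 and Cyp1b1, the classical targets of the aryl hydrocarbon receptor, were not called (0.34 and 0.21, adjusted p = 0.574 and 0.591), although the receptor gene Ahr itself rose by 0.81 ± 0.14 (adjusted p = 0.0112). In the NRF2 and glutathione list none of 25 genes was called higher by limma, 4 having an unadjusted p under 0.05 in that direction, and 4 were called lower, or 8 without CSD5 replicate 1, when 1 was called higher. The 3 shared ones were Nfe2l2, which encodes NRF2, with 8.69, 7.92 and 7.73 in CSD5, 7.92, 7.63 and 7.62 in CSD14 against 8.75, 8.88 and 8.64 in ND14, the haem oxygenase Hmox1 (-1.20, adjusted p = 0.0484) and catalase, Cat (-1.02). The quinone reductase Nqo1 differed by -0.82 with an adjusted p of 0.0793, and without CSD5 replicate 1 by -1.01 with 0.000203.

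Retinoid and eicosanoid genes each held members in both directions. Rarb, the retinoic acid receptor that retinoic acid itself induces, rose from 3.15, 3.22 and 2.91 in ND14 to 3.30, 4.60 and 4.57 in CSD5 and 4.74, 4.59 and 4.88 in CSD14, a difference of 1.35 ± 0.26 (adjusted p = 0.017). Dhrs3, a retinal reductase, rose by 2.03 and Rdh12, a retinol dehydrogenase, and Crabp2, which carries retinoic acid to the nucleus, fell by 3.19 and 2.78 on the log2 scale. Of the lipoxygenase genes Alox15 rose by 2.56 ± 0.33, with 4.53, 6.15 and 6.27, then 8.24, 8.31 and 8.35, against 4.58, 4.53 and 4.15. Its CSD5 replicate 1 lay inside the ND14 range, and CSD14 was 2.65 above CSD5 (adjusted p = 0.00931). Alox5ap, which presents arachidonate to 5-lipoxygenase, rose by 0.91 in the cluster of higher signal, and Pla2g4f, a cytosolic phospholipase, fell by 1.87.

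Some matrix genes rose. Of 33 laminin, integrin and collagen IV genes 7 were called higher and 1 lower, the 7 shared. Lama5, the laminin chain of epithelial basement membranes, read 7.33, 8.18 and 8.60 in CSD5, 8.74, 8.77 and 8.54 in CSD14 against 7.07, 7.15 and 6.87 in ND14, a rise of 1.33 ± 0.23 (adjusted p = 0.0117). Lamb1, Lamb2 and Agrn, further laminin chains and agrin, rose by 1.14, 1.33 and 1.03, and Itga3 by 0.76. Among 10 laminin genes measured, 3 were called higher and 7 were not called. Fn1, fibronectin, rose by 2.35 ± 0.36, and the membrane proteases Mmp14 and Adam9 by 0.81 and 1.36, whereas Mmp9 and Mmp12, which split gelatin and elastin, were not called (0.69 and 1.56, adjusted p = 0.283 and 0.388). Without CSD5 replicate 1 both were called (0.93 and 2.30, adjusted p = 0.00521 and 5.75e-06). Mmp12 read 8.47 and 8.51 in CSD5 replicates 2 and 3, 4.08 in replicate 1 and 2.32 to 2.93 in CSD14 against 3.20 to 3.24 in ND14, so that it was above ND14 at day 5. Its CSD14 difference from ND14 was -0.67 ± 0.96 (unadjusted p = 0.499, limma), at low signal.

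Signalling genes went both ways. Of 29 PI3K, Akt and mTOR genes 4 were called higher and 1 lower, of 32 MAP kinase and phosphatase genes 3 and 6, of 31 Notch and Wnt genes 2 and 5, and of 26 TGF-beta and BMP genes 4 and 3. Without CSD5 replicate 1 these counts were 5 and 2, 3 and 13, 2 and 9, and 7 and 8. Over all 22180 genes the calls rose as well, from 1003 higher (4.52%) and 848 lower (3.82%) to 1576 and 1892. Some list counts lie near the shares over all genes, such as 1 of 29 PI3K, Akt and mTOR genes called lower. Within kinase signalling, Pik3r1, the regulatory subunit of PI3 kinase, rose by 1.17 ± 0.20 with 6.79, 7.70 and 7.78 in CSD5, 8.06, 8.09 and 7.80 in CSD14 against 6.61, 6.53 and 6.46 in ND14, and Igf1r, a growth factor receptor that signals through it, by 1.15. The p38 isoform Mapk11 rose by 1.10 ± 0.19 (adjusted p = 0.0112). Dual-specificity phosphatases, which switch MAP kinases off, were split, with Dusp5 and Dusp4 lower by 1.49 and 0.92 on the log2 scale and Dusp6, read in its brighter cluster, higher by 1.5. Hey1, a target of Notch, rose by 1.86 ± 0.23 and the ligands Wnt4 and Wnt7a fell by 0.75 and 1.0, while Tgfb3 rose by 1.20 and Tgfbi, a secreted target of TGF-beta, fell by 2.49. Of 27 proliferation genes 2 were called higher and 1 lower, with 10 lower without CSD5 replicate 1, and Mki67, which marks cycling cells, differed by -0.39 (adjusted p = 0.128). The cell cycle inhibitor Cdkn1a fell by 0.76 and Cdkn2a rose by 0.71.

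Marker lists of other cell types were read beside these results. For comparison, 4.52% of all genes were called higher and 3.82% lower. Without CSD5 replicate 1 these were 1576 and 1892 of the 22180 genes. Of 28 macrophage markers 5 were called higher and 1 lower, or 11 and 3 without CSD5 replicate 1, and 9 of the 28 lay under 3.5 on all arrays. Their summed linear signal was 1432 to 2222 in CSD5, with 1432 in replicate 1, 1345 to 1412 in CSD14 and 1269 to 1497 in ND14. Of 11 lymphocyte markers limma called 0 (0 at an unadjusted p under 0.05), with sums of 61 to 77 on all arrays, and of 9 endothelial and erythroid markers 0 (2 unadjusted), with sums of 52 to 68. Of 22 fibroblast and smooth muscle markers Fn1 alone was called, or 3 higher without CSD5 replicate 1, and the sum, to which Fn1 adds, was 345 to 785 in CSD5, 1007 to 1075 in CSD14 and 291 to 332 in ND14. The 22 striated muscle genes held 0 calls by limma (1 at an unadjusted p under 0.05) but 8 were called higher without CSD5 replicate 1, and they summed to 317 in that array and up to 1212 in the other CSD5 arrays against 257 to 294 in CSD14 and 318 to 332 in ND14. The part of these cells in the results above was not tested.

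Small RNA genes added little. Of 483 measured miRNA genes 4 were called lower and 1 higher, and 3 of those lower ones, Mir205, Mir370 and Mir20a, were shared. The counts were 8 lower and 4 higher without CSD5 replicate 1. The arrays read the precursor or its host transcript, not the mature miRNA. Mir205, an epithelial miRNA gene known from stratified tissues, had 4.12, 3.79 and 3.72 in CSD5, 3.42, 3.31 and 3.34 in CSD14 against 4.13, 4.56 and 4.20 in ND14, a fall of 0.68 ± 0.13 (adjusted p = 0.0158). Mir20a fell by 0.97 and Mir370 by 0.78, all at low signal. Their mature sequences from the 5′ arm (RefSeq, GRCm38.p6) are given with the seed, bases 2 to 8, in capitals, and the 3 seeds differ.
mmu-miR-205-5p: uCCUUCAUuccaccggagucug
mmu-miR-20a-5p: uAAAGUGCuuauagugcagguag
mmu-miR-370-5p: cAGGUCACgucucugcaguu

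The edge of the shared set was narrow. The members nearest to the bound were Inppl1, Itgb1 and Gm5431, with CSD5 against ND14 at unadjusted p of 0.05, 0.0497 and 0.0497, and the called genes just outside it were Cad, Cdkn1b and Psmb10, at 0.0503, 0.0508 and 0.0509. Of the 1851 called genes 323 were not shared, 244 higher and 79 lower, and in 318 of them the CSD5 difference had an unadjusted p of 0.05 or more. In 19 the CSD5 and CSD14 differences had opposite signs, among them Sftpc, Tmem212, Dynlrb2 and Ptgs2, the inducible cyclooxygenase, which read 7.38, 7.56 and 7.52 in CSD5, 6.10, 5.71 and 5.5 in CSD14 against 7.23, 7.39 and 6.98 in ND14.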

How the data were processed

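RNA of lung organoids was hybridised to Affymetrix Mouse Gene 2.0 ST arrays, 10 ng per array, with 3 arrays each of CSD5, CSD14 and ND14. The authors processed the arrays in Transcriptome Analysis Console and deposited log2 signals for 34472 transcript clusters, and the summarisation algorithm is not given in the sources used here. The values were used as deposited. A platform annotation, which can be old, gave 23521 clusters 1 gene symbol, 1820 several and 9131 none, and among 22180 genes the 1082 with several clusters were read through the one of highest mean signal.

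The 3 group means were estimated across all clusters in R 4.3.3 (limma 3.58.1), with no filter on signal and Benjamini-Hochberg adjustment over all 34472. Adjusted p-values in the text come from this fit, except those given without CSD5 replicate 1, which come from a fit that left out that array. The script was tested on simulated data. The number of arrays limits the precision. Beside the shared rule, genes are named where they are among the first 12 in each direction by the smaller of the CSD5 and CSD14 differences without overlap of CS and ND14 arrays, among up to 4 members of a list with the smallest adjusted p, named by the study for these organoids, or nearest to the bound of the rule, 3 on each side. Predicted genes, clone names, small RNAs and pseudogenes were left out of the first ranking. Ahr, C1qa, Cd3e, Cd68, Cdh1, Col1a1, Csf1r, Cyba, Cyp1a1, Cyp1b1, Dcn, Epcam, Flg, Ifit1, Ifit2, Ifit3, Isg15, Ivl, Krt14, Krt15, Mir205, Mir20a, Mir370, Muc5ac, Muc5b, Nqo1, Oas3, Oasl1, Pecam1, Ptgs2, Ptprc, Rsad2, Stat2, Trim30a, Trp63 and Tyrobp were named after their values were seen. The members and the 37 gene lists, of which 887 of 959 entries were matched, were chosen with earlier results of these data known.

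Alternatives were a 2-group model, median centring, quantile normalization, a filter at the 40th percentile of mean signal, limma-trend, array weights, a replicate block, other thresholds and leaving out each array. Promoter and mature miRNA sequences came from RefSeq (GRCm38.p6). Figures were drawn with matplotlib 3.10.9.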

Additional observations from a re-analysis of the deposited data

Results flagged for a closer look

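CSD14 differed from CSD5 within CS, by that contrast of the same limma fit at an adjusted p under 0.05, in 41 of the genes named above, with CSD14 lower than CSD5 in 24 and higher in 17. Gpnmb (-3.79) and Ccr2 (1.14) also differed and are not in these counts. The contrast does not use ND14, and culture day and medium cannot be told apart in it. It does not show a difference in the effect of CS, since a naïve day 5 group was not analysed here. Of the 41, 39 were also called without CSD5 replicate 1, the exceptions being Cdkn1b and Mir20a, whose adjusted p was then 0.0551 in both.

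Among the squamous genes the CSD14 minus CSD5 difference was -6.66 for Lce3a, -4.47 for Cnfn, -3.75 for Sbsn and -3.65 for Dmkn. It was -4.44 for Krt16, -4.28 for Krt6b, -2.33 for Krt13, -2.05 for Krt6a and -0.87 for Krt14. Among lipid and processing enzymes it was -5.5 for Alox12b, -4.92 for Abca12, -4.08 for Elovl4 and -2.29 for Klk8, and among desmosome genes -5.15 for Cdsn, -2.33 for Dsg3 and -1.55 for Evpl. The other genes lower at CSD14 were Sftpc (-6.51), Mmp12 (-4.47), Il18 (-3.02), Ptgs2 (-1.72), Muc5b (-1.3), Csf1r (-1.29), Dusp5 (-1.22) and Mir20a (-1.0). Of these, Mmp12 and Csf1r were not called in the contrast with naïve organoids, and Sftpc and Ptgs2 had opposite signs on the 2 days.

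Among genes higher at CSD14 were the interferon and antigen presentation genes Irf7 (1.3), Psmb9 (1.41) and Psmb8 (1.33) and the complement genes Cfb (1.63) and Serping1 (0.97). The airway genes Scgb1a1 (0.96), Cxcl17 (1.83), Tmem212 (2.63), Dynlrb2 (2.05) and Rsph9 (1.2) were higher too. The remaining ones were Pon1 (2.86), Alox15 (2.65), Alox5ap (1.04), Hey1 (1.45), Il18r1 (1.45), Cyba (1.38) and Cdkn1b (0.77).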

How the results depend on the processing

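The contrast kept its direction in all 139 called genes followed from the text under every alternative in which they were fitted, but the counts moved widely. These genes were picked as called on the same arrays, so a kept direction was largely set by that choice. Median centring, quantile normalization, the filter on low signal, limma-trend and a fold change over 1.5 kept the clusters called within 1.5 times of 2098, and the first 4 kept the shared genes within 1.5 times of 1528. Both scalings moved the median of all genes by 0.05. The 6 CS arrays as 1 group gave 18 clusters and 16 shared genes, and 2981 clusters without the first CSD5 array, an alternative chosen after seeing the data, and the cause was not tested. Array weights gave 5649 clusters and 3760 shared genes, and, chosen after seeing the data, 2277 of similar size, 249 graded towards CSD5 and 528 called between the days, and they gave CSD5 replicate 1 a weight of 0.329. The study's thresholds, a fold change over 2 at an unadjusted p under 0.05, gave 1056 clusters (427 higher, 629 lower). An adjusted p under 0.05 in each single contrast left 0 shared genes by limma, with 4770 and 6668 clusters at an unadjusted p under 0.05 in those contrasts, and 1897 without the first CSD5 array, again chosen after seeing the data. A ratio of 0.5 to 2 for similar size gave 1084 similar genes, 443 graded towards CSD14 and 1 graded towards CSD5. Leaving out 1 array gave 372 to 4082 clusters, and every array but CSD5 replicate 3 moved that count by over 1.5 times. It gave 299 to 2902 shared genes, 60 to 1889 of similar size, 230 to 751 graded towards CSD14, 0 to 358 graded towards CSD5 and 61 to 367 called between the days, each low without an ND14 or CSD14 array. The cause was not tested beyond the loss of arrays. Of the 139 called genes followed, 4 stayed called with the CS arrays as 1 group, all without CSD5 replicate 1, 112 to 124 without another CS array, and 58, 87 and 55 without ND14 replicates 1, 2 and 3. Ptgs2 was not called under either scaling. The replicate numbers did not pair the arrays, with correlations of same-numbered deviations from -0.13 to 0.06. A replicate block gave 1850 clusters, 1402 shared genes and 7 graded towards CSD5, and 133 of the 139 genes stayed called, the others being Cad, Dynlrb2, Hmox1, Itgb1, Lamb2 and Ptgs2. List medians moved by more than the spread in 14 of 444 combinations of list and setting and members called by over 1.5 times in 185 of 444, 14 of them without CSD5 replicate 1. Genes near the lowest signals, such as the miRNA genes, are limited by the arrays' background.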
